A study of Mus musculus with 179 samples.

Results

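Among single cells from mouse pancreatic organoids, 4 had the highest summed level of the gastric pit cell genes Gkn1, Gkn2 and Muc5ac. They made up 2.23% of the cells of the series, are called pit-like here and keep the names Acinar22, Acinar55, Acinar98 and Acinar175. They were chosen by 2 rules: the summed level of Gkn1, Gkn2 and Muc5ac had to reach 1000 CPM (counts per 1000000 UMIs of the cell), and at least 5000 genes had to have a UMI. A UMI (unique molecular identifier) marks 1 counted RNA molecule, and all levels are CPM of UMIs unless reads are named. The reference was every other cell with at least 40000 UMIs, 84.4% of the series, after setting aside 6 cells rich in fibroblast transcripts. The other 24 cells, those 6 included, belong to neither group.

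All cells came from wild type C57BL6 mice. Acinar cells, the enzyme-secreting cells of the exocrine pancreas, were isolated from digested tissue over a density gradient and cultured in Matrigel for 9 days. RNA was read by Smart-seq3, a plate-based full-length method, within a protocol that also profiles the epigenome of the same cell. The labels place every cell in 1 group and name no animal and no culture, so cells are not replicates. The values that follow therefore describe these cells, and no test was made between them.

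Gastric pit (foveolar) cells line the surface and the pits of the stomach. They secrete a gel built on the mucin Muc5ac, stabilised by the trefoil peptide Tff1, and release the small gastrokine proteins Gkn1 and Gkn2, which share the same gene cluster. Psca is a lipid-anchored surface protein of the same cells. Pit-like gene programmes are known in pancreatic metaplasia and in early pancreatic neoplasia, where cells of the exocrine pancreas take on gastric transcripts.

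The gastrokine genes lie side by side on chromosome 6 of the mouse genome (GRCm38): Gkn1 at chr6:87345650-87350942 on the minus strand, Gkn2 at chr6:87373357-87379497 on the plus strand and Gkn3 at chr6:87383256-87388935 on the minus strand. Their promoters are shown because Gkn1 and Gkn2 were high together in 2 of the 4 cells, and because Gata4, which binds GATA motifs, was among the genes higher in all 4. The 250 bases before each RefSeq start (GRCm38.p6) were searched for AGATAA on both strands (TTATCT on the other), and matches are in capitals.
Gkn1 promoter, chr6:87350916-87351165, minus strand: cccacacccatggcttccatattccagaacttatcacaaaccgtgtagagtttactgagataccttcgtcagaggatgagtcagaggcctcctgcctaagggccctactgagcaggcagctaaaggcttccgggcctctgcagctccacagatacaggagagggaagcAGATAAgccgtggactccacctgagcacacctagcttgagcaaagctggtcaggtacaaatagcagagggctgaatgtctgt
Gkn2 promoter, chr6:87373115-87373364, plus strand: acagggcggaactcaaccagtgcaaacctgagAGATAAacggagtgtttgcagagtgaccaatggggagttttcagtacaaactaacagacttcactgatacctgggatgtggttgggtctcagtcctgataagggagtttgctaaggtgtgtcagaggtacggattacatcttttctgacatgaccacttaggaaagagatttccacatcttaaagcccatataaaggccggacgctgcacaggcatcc
Gkn3 promoter, chr6:87388936-87389185, minus strand: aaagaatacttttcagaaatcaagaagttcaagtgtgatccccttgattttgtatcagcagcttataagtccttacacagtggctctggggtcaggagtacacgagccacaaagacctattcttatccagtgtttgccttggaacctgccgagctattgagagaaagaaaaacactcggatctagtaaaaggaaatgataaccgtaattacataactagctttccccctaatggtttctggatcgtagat
The motif began 82 bases before the start of Gkn1 and 218 bases before that of Gkn2, and did not occur in the 250-base window of Gkn3. There a match begins 4 bases before the start and runs past the end of that window. It occurred in 9.99% of 32851 promoter windows of this length. A match describes the letters only and is not a binding site.

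The 3 genes of the rule divided the 4 cells into 2 types. Gkn1 stood at 27465 CPM in Acinar22 and 42081 in Acinar98, but at 15.1 in Acinar55 and 22.9 in Acinar175, where 3 and 2 UMIs were counted. Gkn2 followed the same division, with 20760 and 17075 in the first pair of cells against 5.02 and 22.9 in the second. Muc5ac was abundant in all 4, at 3426 in Acinar22, 10579 in Acinar55, 5650 in Acinar98 and 8933 in Acinar175. Acinar22 and Acinar98 are therefore called the gastrokine type, and Acinar55 and Acinar175 the Muc5ac type. These are the values that chose the cells, so they are no finding.

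Low counts of Gkn1 were found in nearly every cell. Of the reference cells, 94.7% had a UMI of Gkn1, with a median of 26.2 CPM and a highest level of 125.5. All 6 fibroblast-rich cells had one too, at 19.4 to 68.9 CPM, with a median depth of 169027 UMIs against 171929 in the reference. After thinning every cell to 40000 UMIs, the share was 60.3% in the reference (exact binomial 95% interval 52 to 68.1%) and 50% in the fibroblast-rich cells (11.8 to 88.2%). The Gkn1 and Gkn2 levels of the Muc5ac type lay within the range of the reference cells. The source of these low counts was not tested.

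No cell lay near the limit of 1000 CPM among those with enough genes. The lowest summed level inside was 8979, in Acinar175, and the highest outside were 669 in Acinar155 and 617 in Acinar52. Acinar155 held Tff1 at 5720 CPM and Anxa10 at 2313, while Mucl3 was at 0. A further 5 cells passed 1000 CPM but had fewer than 5000 genes, and these are described in the closing section.

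Depth differed among the 4 cells. They gave 222976 UMIs in Acinar22, 199265 in Acinar55, 47789 in Acinar98 and 87203 in Acinar175, against a range of 41560 to 329522 in the reference. Genes with a UMI numbered 11139, 11087, 6711 and 9939 in the same order, against a reference median of 11809, and mitochondrial genes held 0.615 to 1.49% of UMIs. Acinar98 belongs to the shallow stretch of titles 97 to 120. There, 1 UMI equals 20.9 CPM and a count of 0 allows up to 62.8 CPM, so low levels in that cell are poorly resolved. The 5 marker genes Gkn1, Gkn2, Muc5ac, Tff1 and Psca together held 9.48% of the UMIs of Acinar22, 13.9% of Acinar98, 3.03% of Acinar55 and 1.63% of Acinar175, against a reference median of 0.0310%. Markers of non-epithelial cells were scarce: the 6 fibroblast markers, Ptprc, Csf1r and Lyz2 of immune cells, and Pecam1 and Kdr of endothelium had no UMI in any of the 4, while Cd68 and Cdh5 had 1 UMI each, in Acinar55. Of the longer lists, 11 of 13 fibroblast, 6 of 8 endothelial and 7 of 8 immune genes had no UMI in the 4 cells. Their summed levels reached 45.9, 15.1 and 5.02 CPM at most, against reference medians of 88.5, 13.01 and 4.35.

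A gene was called higher when all 4 cells exceeded the 90th percentile of the reference and the mean level plus 5 CPM was at least 2 times that of the reference. It was called lower when all 4 lay below the 10th percentile and the ratio was at most 0.5. Of 12082 genes with a mean of at least 5 CPM, 1.43% were higher and 2.65% (320 genes) were lower. These percentages are the background for the gene groups below, and since the cells were cut from the same UMIs they carry no test. The mean is taken over the 4 cells and the reference together. Genes such as Fer1l6 and Il18, with reference means of 2.13 and 1.96 CPM, passed only through the 4 cells and could not be called lower. Thinning all cells to 40000 UMIs left 87 higher and 74 lower genes, of which 79 and 63 were among the first calls, so the share of calls that were higher went from 35.1% to 54%. Without Acinar175 the counts were 314 and 864, without Acinar98 259 and 385, and without Acinar55 491 genes were lower. The ratio of the median gene was −0.50 on the log2 scale, and the ratios below are not adjusted for it.

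**Figure D1:**
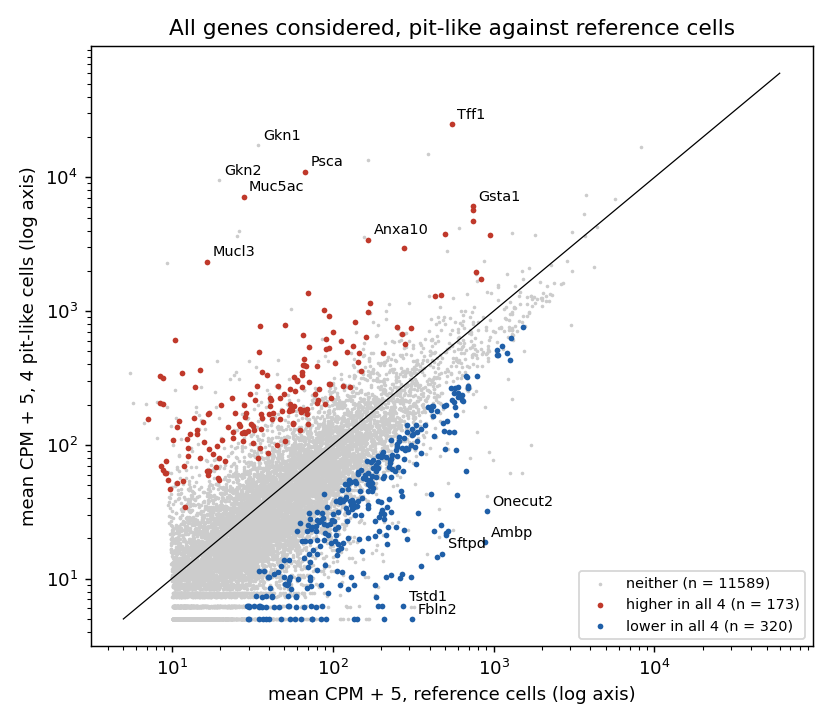
Mean level of each of the 12082 genes in the 4 pit-like cells (vertical) against the reference cells (horizontal), both as CPM plus 5 on log axes. Red points are the genes called higher in all 4 cells (1.43%), blue points those called lower (2.65%), grey points neither, and the line marks equal levels. Gkn1 and Gkn2 lie far above the line in grey because only 2 of the 4 cells held them at a high level.

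In 9 genes every pit-like cell lay above every reference cell (0.0745% of genes): Muc5ac, Psca, Mucl3, Tff1, Bcas1, Fer1l6, Vstm5, Tob1 and Lasp1. Muc5ac is part of the rule that chose the cells, so this is no finding for it. Acinar55 and Acinar175 passed the rule through Muc5ac, while Gkn1 alone took Acinar22 and Acinar98 past 1000 CPM. No gene lay below every reference cell in all 4. Tff1 stood at 30725 CPM in Acinar22 (exact Poisson 95% interval 30002 to 31462), 15693 in Acinar55 (15147 to 16253), 47145 in Acinar98 (45218 to 49133) and 6238 in Acinar175 (5725 to 6785). The reference median was 199.3 and its highest cell 5840, which overlaps the interval of Acinar175. Psca, the lipid-anchored surface protein, stood at 12441, 3970, 26554 and 1066 in Acinar22, Acinar55, Acinar98 and Acinar175. Its highest reference cell, at 1066 as well, was level with Acinar175. In both genes the gastrokine type was above the Muc5ac type, although neither gene met the rule for a difference between types.

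Mucl3, a mucin-like surface protein, showed the same order of the types, with 3041 CPM in Acinar22 and 4541 in Acinar98 against 808.0 in Acinar55 and 986.2 in Acinar175. The highest reference cell held 296.9. Bcas1, by contrast, varied little among the 4 cells, from 291.1 to 397.6 CPM, over a reference median of 0 and a highest cell of 133.5. Vstm5 was as even, at 699.5 to 928.4 against a highest reference cell of 645.8. Fer1l6, a member of the ferlin family of membrane proteins, stood at 233.2, 75.3, 251.1 and 45.9, with a highest reference cell of 39. Its lowest member value rests on 4 UMIs.

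**Figure D2:**
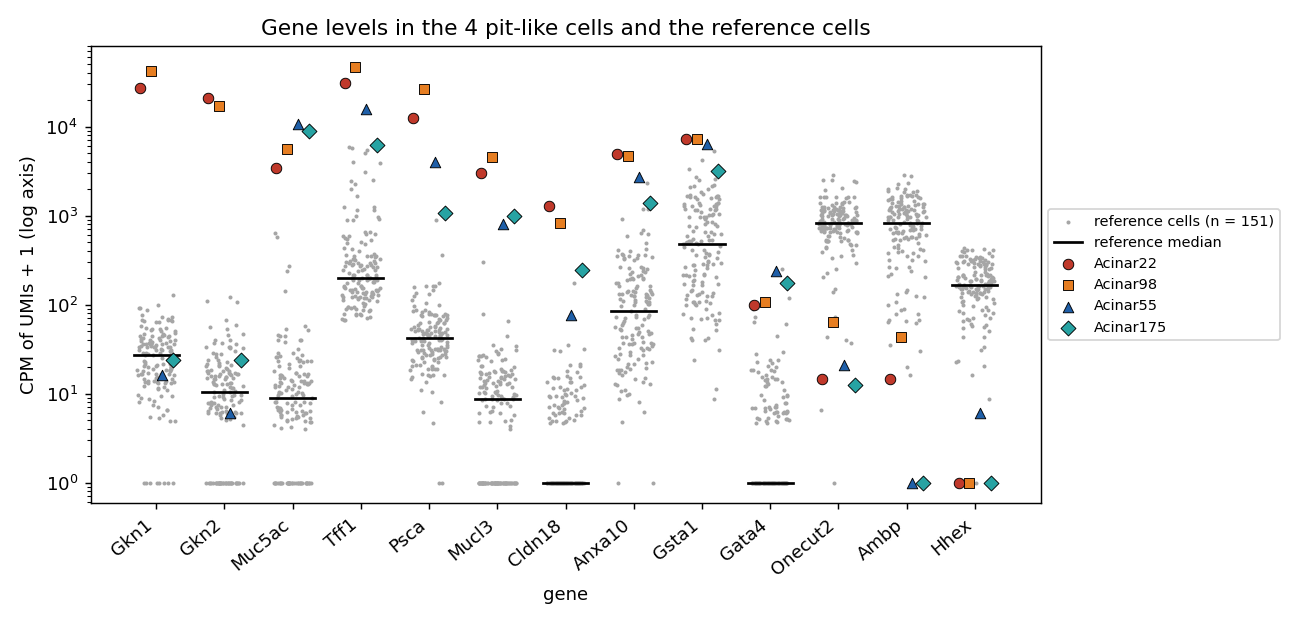
Level of 13 genes in each pit-like cell (coloured markers) and each reference cell (grey points, bar at the median), as CPM plus 1 on a log axis. Gkn1 and Gkn2 are high in Acinar22 and Acinar98 only, Muc5ac, Tff1 and Psca in all 4, while Onecut2, Ambp and Hhex lie below the 10th percentile of the reference in all 4.

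Other genes of the gastric surface epithelium were considered as a list of 23, of which 16 reached the expression minimum. The list was drawn up with earlier results of these data known. Called higher were 6 of the 16 (Anxa10, Mucl3, Vsig2, Cldn18, Sytl2 and Tspan8), and none was lower. A ratio above 1 was found in 13 of the 16. Fcgbp had no UMI in any of the 4 cells against a reference median of 19.3 CPM. With a 10th percentile of 0 it could not be called lower. The median ratio of the 16 was 3.85, against 0.709 for all genes considered. Anxa10, an annexin of foveolar cells, stood at 4897 CPM in Acinar22, 2720 in Acinar55, 4625 in Acinar98 and 1376 in Acinar175, over a reference median of 84.2 and a highest cell of 2313. Cldn18, the claudin of gastric tight junctions, stood at 1278, 75.3, 816.1 and 240.8 in the same order, and the reference median was 0. Its level was lowest in Acinar55, below the highest reference cell of 174.6. Phgr1 stood at 389.9 to 1915 and the protease Ctse at 378.4 to 1841, without passing the percentile in every cell. Tff2, the trefoil peptide of mucous neck cells, stood at 192.8, 45.2, 20.9 and 814.2, within the range of the reference. Gkn3 had 12 UMIs in Acinar98 (251.1 CPM), 1 in Acinar22 and none in the Muc5ac type or in any reference cell.

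Genes that make, glycosylate or export mucins were a list of 36, with 25 considered. Galnt7, Gcnt3, Rab27b and Bcas1 were called higher and Kcnn4 lower, and the median ratio was 1.87. Gcnt3, the enzyme that branches mucin O-glycans, stood at 497.8 CPM in Acinar22, 863.2 in Acinar55, 585.9 in Acinar98 and 596.3 in Acinar175, against a reference median of 127.6. Galnt7, which acts early in mucin O-glycosylation, was even across the cells at 242.2 to 326.2, against 76.9. Rab27b, a small GTPase of secretory granule release, stood at 114.7 to 313.9, against 46.8. Its partner Sytl2, which tethers Rab27-bearing granules to the membrane, stood at 331.9, 547.0, 251.1 and 837.1, against 4.14. Rab27a was at 120.4 to 230.2 CPM in 3 of the cells and had no UMI in Acinar175, so it was not called. The calcium-activated potassium channel Kcnn4 went the other way, with 35.9, 0, 0 and 34.4 CPM against a reference median of 507.3. The goblet cell factors Agr2 and Spdef stood at 962.6 and 62.8 CPM in Acinar98, at 8.97 each in Acinar22, and had no UMI in the Muc5ac type.

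Of the secreted gel-forming mucins, Muc2, Muc5b and Muc6 had no UMI in any of the 4 cells. Muc5ac lies beside them on chromosome 7, at chr7:141788972-141819231. Among transmembrane mucins, Muc1 stood at 1610, 361.3, 899.8 and 263.8 CPM, around the reference median of 630.8. Muc20 had no UMI in any of the 4 cells and was called lower against a median of 69.

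Transcription factors of the foregut were called in both directions, 2 higher and 4 lower of 20 considered. Gata4, a factor of stomach and early pancreas, stood at 98.7 CPM in Acinar22, 235.9 in Acinar55, 104.6 in Acinar98 and 172.01 in Acinar175, with a reference median of 0 and a 90th percentile of 17.4. These levels rest on 22, 47, 5 and 15 UMIs in the same order, and Gata4 did not meet the rule for a difference between types. Foxq1, a forkhead factor needed for Muc5ac in stomach surface cells, stood at 139.03, 205.8, 293.0 and 355.5, against a median of 47.8. Klf4 stood at 1139, 1067 and 963.3 in Acinar55, Acinar98 and Acinar175 and at 282.5 in Acinar22, below the 90th percentile of 509.4. Onecut2, Ehf and Hes1 were among the lower factors. Onecut2, a pancreatic progenitor and duct factor, stood at 13.5, 20.1, 62.8 and 11.5 CPM against a reference median of 825.5. Ehf, an epithelial Ets factor, stood at 35.9, 0, 0 and 68.8 against 336.8.

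Duct genes differed among themselves. Of 19 considered, none was called higher and 5 were lower, Ambp, Onecut2, Epcam and Bicc1 among them, with a median ratio of 0.324. Ambp, a secreted protease inhibitor precursor, stood at 13.5 and 41.9 CPM in the gastrokine type and at 0 in the Muc5ac type, against a reference median of 831.0. Bicc1, an RNA-binding protein of duct epithelium, stood at 0 to 45.9 against 388.4. Epcam, the epithelial adhesion molecule, was lower at 80.3 to 197.3 against 493.7. The duct keratins did not follow these. Krt19 stood at 3453 to 4086 CPM, above the reference median of 1479 in all 4, and Krt7 at 5126, 3433 and 5619 with 251.1 in Acinar98, around a median of 3392. The summed duct list lay between 13685 and 24603 CPM, with a reference median of 20525.

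Among the lowest ratios outside that list were those of Fbln2, Tstd1, Pdzrn3, Kcne3, Sftpd, Hhex and Smc4. Fbln2, an extracellular matrix protein, and Pdzrn3 had no UMI in any of the 4 cells, against reference medians of 167.7 and 140.9 CPM. Tstd1 and the potassium channel subunit Kcne3 each had a UMI in Acinar55 alone (5.02 CPM), against medians of 262.7 and 180.2. Hhex, a homeobox factor of ventral pancreas and duct, had a UMI in Acinar55 alone too, against 165.7. Sftpd, a secreted collectin, stood at 0 to 22.9 against 464.9. Smc4, a condensin subunit of mitotic chromosomes, had a UMI in Acinar98 alone (20.9 CPM), against 216.5. All of these levels lay below the 10th percentile of the reference.

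Markers of mucous neck cells and of mucous metaplasia summed to 282.5, 471.7, 167.4 and 1066 CPM, against a reference median of 2134. Wfdc2 and Cd44 were called lower of 9 considered, and 0 of the 9 had a ratio above 1. Ceacam10 stood at 180.7 in Acinar55 against a reference median of 25.8, and Tff2, given above, at 814.2 in Acinar175 against 59.5. Muc6 and Aqp5, which mark mucous neck cells, had no UMI in the 4 cells, as in the median reference cell, and Pgc of chief cells had none either. Atp4a and Atp4b of parietal cells had 1 UMI each in a single cell. Cd44 stood at 8.97, 15.1, 0 and 57.3 CPM against a reference median of 393.3. Clu, a secreted chaperone of injured epithelium, was at 23191, 21660 and 20206 CPM in Acinar22, Acinar55 and Acinar175 but at 2595 in Acinar98, against a reference median of 7035 and a 90th percentile of 14476.

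Some digestive enzyme transcripts were present in all 4 cells. Ctrb1, chymotrypsinogen, and Pnliprp2, a lipase-related protein, were the 2 genes called higher of 21 acinar genes considered, whose median ratio was 0.188. That ratio is taken against reference means, which extreme values raise: Cela2a had a reference 90th percentile of 7.95 CPM and a highest cell of 16537. The summed list stood at 6041, 24244, 12199 and 1583 CPM in Acinar22, Acinar55, Acinar98 and Acinar175, against a reference median of 149.1 and an upper quartile of 205.3. Zg16, a granule lectin described below, is in this list and made up 9082 CPM of the sum in Acinar98. Ctrb1 stood at 1202 CPM in Acinar22, 19788 in Acinar55, 627.8 in Acinar98 and 1193 in Acinar175, against a reference median of 82.5. Pnliprp2 stood at 3189, 1716, 272.0 and 275.2, against 9.25. Sycn, a zymogen granule protein, stood at 1507, 727.7 and 1862 in 3 cells and at 11.5 in Acinar175. Cpa1, carboxypeptidase, stood at 1345 in Acinar55, at 4.48 in Acinar22 and at 0 in the other two, while Ptf1a and Cela2a had no UMI in any. Acinar52, a reference cell, held Ctrb1 at 85203 CPM.

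Summed intestinal transcripts stood at 3444 CPM in Acinar22 and 15945 in Acinar98, against 772.8 in Acinar55, 229.4 in Acinar175 and a reference median of 787.0. Clca1, a secreted goblet cell protein, stood at 2982 CPM in Acinar22 and 12869 in Acinar98, against 20.1 in Acinar55 and 0 in Acinar175. Zg16, a lectin of goblet and zymogen granules, stood at 9082 in Acinar98, at 8.97 in Acinar22 and at 0 in the others. Spink4 stood at 2197 in Acinar98 and at 22.9 or less in the other 3. The remaining goblet markers Muc2 and Cdx2 had no UMI in the 4 cells, and Tff3 stood at 0 to 34.4 against a reference median of 71.7. Fabp2, the intestinal fatty acid carrier, was called higher at 34.4 to 188.3, and the adhesion gene Cdh17 lower at 0 to 11.5 against 152.6. The labels give a single cell per sample, and whether Acinar98 held RNA of a second cell was not tested.

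Detoxification genes were among the abundant transcripts of the 4 cells. The summed list of 26 stood at 23935, 23988 and 24190 CPM in Acinar22, Acinar55 and Acinar98 and at 13761 in Acinar175, against a reference median of 7504. Gsta1, Gsto1 and Akr1c13 were called higher of 22 considered. Gsta1, a glutathione transferase, stood at 7351, 6449, 7324 and 3177 CPM against a median of 480.6. Gsto1, of the omega class, stood at 8485, 1847, 6173 and 2488 against 613.5. Gsta1 and Akr1c13 have close paralogs, so their counts may be split among copies. Aldh3a1, an aldehyde dehydrogenase of stomach and cornea, stood at 1663 in Acinar175 and had no UMI in the other 3.

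Genes of cornified epithelia summed to 29429, 32068 and 17745 CPM in Acinar22, Acinar55 and Acinar98 and to 2569 in Acinar175, against a reference median of 1679 and a highest cell of 14025. Sprr2a1, a small proline-rich envelope protein, stood at 20419 CPM in Acinar22, 24897 in Acinar55 and 14459 in Acinar98, but at 114.7 in Acinar175, below the reference median of 168.4. None of the 10 genes considered in this list was called. Ly6d stood at 1005 in Acinar22 but at 30.1 in Acinar55 and 41.9 in Acinar98. The copies Sprr2a1, Sprr2a2 and Sprr2a3 are nearly identical and reads cannot be assigned to them with certainty. Sprr1a stood at 6803, 6002, 2511 and 1456, with a 90th percentile of 1490 that Acinar175 missed.

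Cell cycle transcripts were scarce. The 23 genes of G2 and M phase summed to 71.8, 200.7, 62.8 and 229.4 CPM, against a reference median of 1367 and a lower quartile of 321.6. None was called on its own, because the 10th percentile of most lay near 0. The 20 S phase genes summed to 161.5, 90.3, 251.1 and 217.9 against a median of 1316, and Pcna, the replication clamp, was called lower at 0 to 34.4 against 136.5. All 4 cells lay below the lower quartile of the reference for both lists. Some reference cells were as low: 1 to 25 of them lay below a given pit-like cell for G2 and M, and 2 to 16 for S phase.

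A few programmes belonged to a single cell. Acinar55 held the highest level of endoplasmic reticulum chaperones, 10303 CPM against 1776 to 4449 in the other 3 and at most 8265 in the reference. Its Hspa5 and Calr stood at 1947 and 1641, against reference medians of 781.7 and 474.2. Cholesterol synthesis was highest in the same cell, at 6163 CPM, above the reference maximum of 4334. The other 3 cells, at 951.8 to 2406, lay around the median of 1850. Without Acinar55 the chaperone list changed from a log2 ratio of 0.02 to −0.69 and the cholesterol list from 0.58 to −0.17. Mucosal defence genes were low in 3 of the cells, at 1405 to 2110 CPM, while Acinar22, at 5216, lay near the reference median of 5678. Lcn2, an iron-sequestering protein of inflamed epithelium, stood at 10.04 to 183.5 against 974.2.

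**Figure D3:**
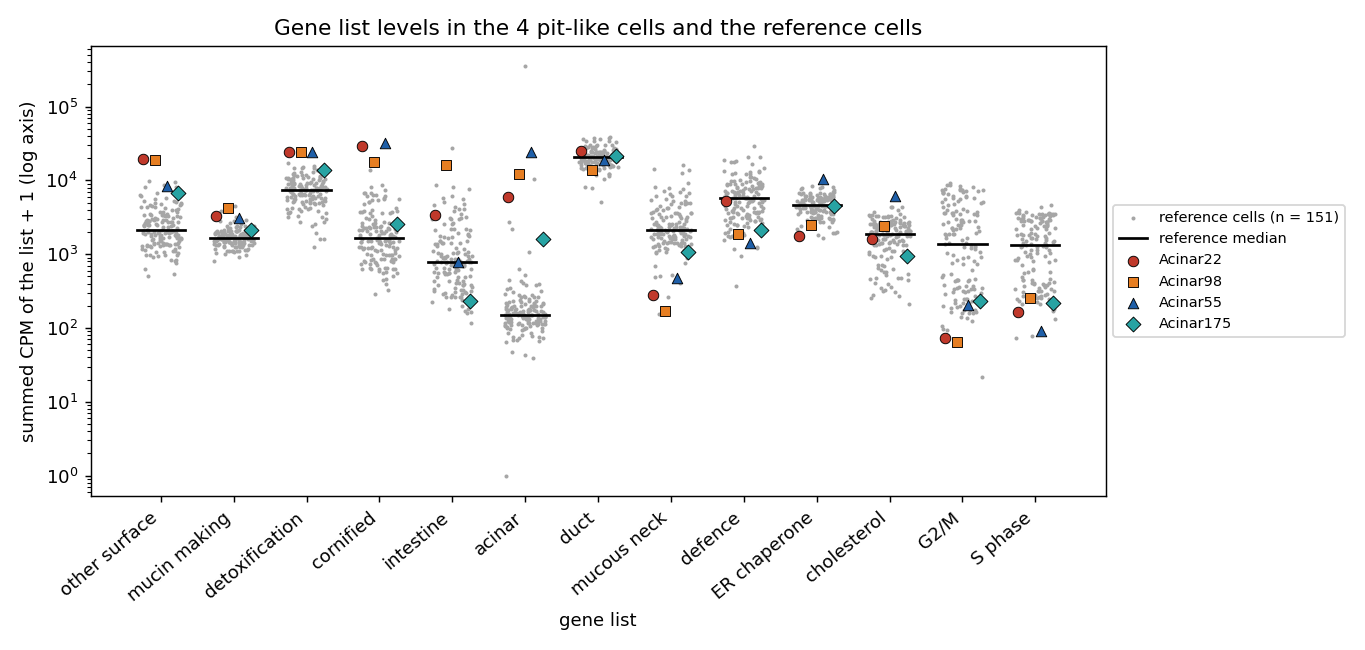
Summed level of 13 gene lists in each pit-like cell (coloured markers) and each reference cell (grey points, bar at the median), as CPM plus 1 on a log axis. Other gastric surface genes and detoxification genes lie above the reference median in all 4 cells and both cell cycle lists below it, while the cornified list has Acinar175 apart at 2569 CPM against 17745 to 32068 in the other 3.

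The types were compared by requiring the lower of a type's 2 cells, plus 5 CPM, to be at least 4 times the higher of the other type's cells plus 5. This gave 79 genes higher in the gastrokine type (0.654% of those considered), while 1.32% were higher in the Muc5ac type. The other 2 ways of pairing the same cells gave 0.935% and 0.372% (Acinar22 with Acinar55 against Acinar98 with Acinar175) and 0.637% and 0.281% (Acinar22 with Acinar175 against Acinar55 with Acinar98). Shares near that of the gastrokine type are therefore reached by other pairings, and a gene with 2 UMIs in Acinar98 can pass. With at least 100 CPM also asked of both cells of the higher type, a condition set after the data were seen, 29 and 19 genes were left. The other pairings then gave 6 and 2, and 8 and 7. Thinned to 47789 UMIs each, the 4 cells gave 282 and 583 genes, and the other pairings 282 and 341, and 474 and 217. With 20 CPM added in place of 5, the types gave 26 and 18.

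The gastrokine type was marked by Clca1 and 2210407C18Rik beside the gastrokines. The latter stood at 2574 CPM in Acinar22 and 11865 in Acinar98, at 5.02 and 22.9 in the Muc5ac type, and at no more than 216.9 in the reference. Il18, a cytokine stored in epithelial cells, stood at 313.9 and 460.4 against 0 and 11.5, with a highest reference cell of 28.5. Duox2, the hydrogen peroxide-producing oxidase of mucosal surfaces, stood at 1489 and 376.7, and its maturation factor Duoxa2 at 497.8 and 188.3. Neither had a UMI in the Muc5ac type, although their reference medians were 110.1 and 83.6. Slc26a9, a chloride channel of gastric surface cells, had 33 UMIs in Acinar22, 6 in Acinar98 and none in the Muc5ac type. Slc9a2, a sodium-proton exchanger of stomach, stood at 112.1 and 62.8 CPM against 10.04 and 11.5, which are 2 UMIs and 1. The cytochromes Cyp2s1 and Cyp2c65 stood at 497.8 and 1088, and at 300.5 and 376.7, against at most 68.8 in the Muc5ac type. Of the 79 genes, 16 had both cells above every reference cell. The rule between types itself favours high values in these cells, and the share over all genes considered is not given. Gkn1 and Gkn2, whose values defined the types, are among the 79 and the 16.

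Few genes called higher in the Muc5ac type lay beyond the reference, and many had low values in the gastrokine type. Of its genes, 1 had both cells above every reference cell, and in 67 (42.1%) both gastrokine cells lay below the 10th percentile. The matching share of the gastrokine list, with both Muc5ac cells below that percentile, was smaller. The rule between types itself favours high values in 1 pair and low values in the other. No share over all genes considered is given for either position, so these counts are not read as a difference between the types. Acinar98 is shallow, and whether its depth adds to the 67 genes was not tested. The metallothionein Mt2 stood at 271.0 CPM in Acinar55 and 389.9 in Acinar175, and Mt1 at 938.4 and 424.3. Mt2 had no UMI in the gastrokine type and Mt1 stood at 8.97 and 41.9, against reference medians of 8.69 and 112.3. Nalcn, a sodium leak channel, stood at 180.7 and 252.3 against 0 in both, with a reference median of 0 and a highest cell of 213.5. Ddit3, a factor of the stress response of the endoplasmic reticulum, stood at 70.3 and 91.7 against 0, with a median of 11.1. Lgals1, a galectin, stood at 567.1 and 263.8 against 0 and 20.9, and the epoxide hydrolase Ephx1 at 321.2 and 252.3 against the same 0 and 20.9. The reference medians of the last pair, 149.8 and 178.6, lay between the types.

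**Figure D4:**
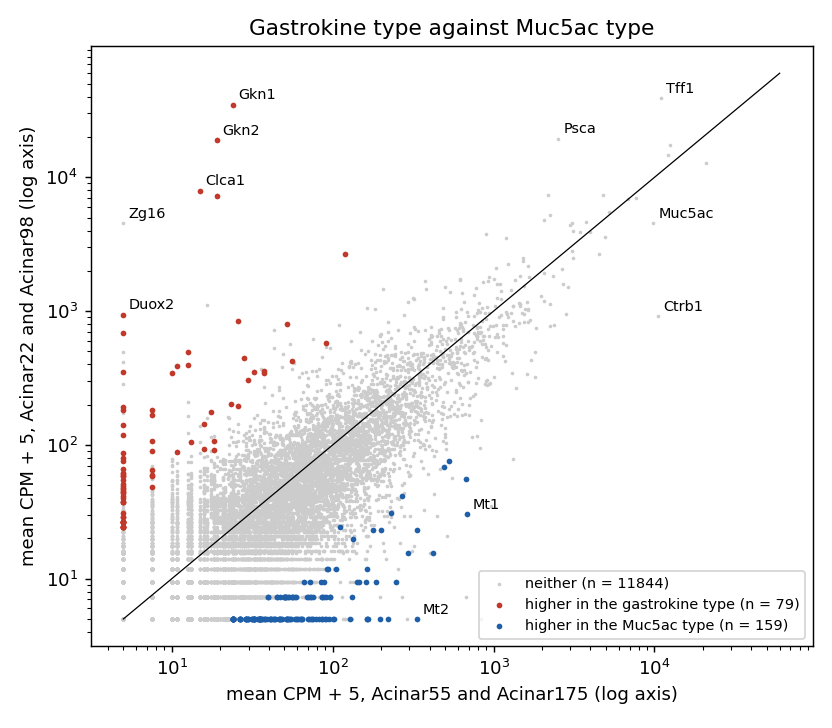
Mean level of each gene in Acinar22 and Acinar98 (vertical) against Acinar55 and Acinar175 (horizontal), as CPM plus 5 on log axes, with the line at equal levels. Red points are the 79 genes called higher in the gastrokine type and blue points those called higher in the Muc5ac type (1.32%). Zg16 and Ctrb1 lie off the line in grey because the level of 1 cell, Acinar98 for Zg16 and Acinar55 for Ctrb1, sets the mean of its pair.

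Each of the 4 cells was about as close to single reference cells as to the other pit-like cells, and mostly less close to most of the reference. The exception was Acinar175, whose 0.489 with Acinar98 lay below its reference median of 0.512. Spearman correlations over the 12082 genes, which depend on depth, ran from 0.489 (Acinar98 and Acinar175) to 0.580 (Acinar22 and Acinar98) among the pit-like cells. Correlations with the reference cells had medians of 0.448 for Acinar22, 0.471 for Acinar55, 0.418 for Acinar98 and 0.512 for Acinar175. For every one of the 4, except Acinar98, a reference cell exceeded its closest pit-like cell. The closest were Acinar155 to Acinar22 (0.592), and Acinar165 to Acinar55 (0.591) and to Acinar175 (0.593). For Acinar98 the closest reference cell was Acinar68, at 0.549.

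A few reference cells carried much of the higher gene set at summed levels of the 3 rule genes below the limit. Of the higher genes other than Muc5ac, the median reference cell lay above the 90th percentile in 10 (5.81%). Acinar165 did so in 75% of them, Acinar155 in 70.9%, Acinar81 in 52.9%, Acinar68 in 48.3% and Acinar173 in 44.2%. The share of all genes considered that each of these cells held above that percentile is not given. Likeness to the pit-like cells can therefore not be read from these shares alone. Acinar165 held Muc5ac at 52.4 CPM, Tff1 at 349.3 and Psca at 881.9. Its Gata4 was at 253.2, Gsta1 at 5353 and Gcnt3 at 881.9, its Onecut2 was at 148.4 and it had no UMI of Hhex. Acinar155 held Muc5ac at 641.0, the highest level of the reference, where the 90th percentile was 30.96. Its Tff1 was at 5720, Anxa10 at 2313 and Gsta1 at 4215, with Gata4 at 20.9. Acinar68 held Tff1 at 5048 and Gsta1 at 2544, but its Ambp, at 2875, and Onecut2, at 1633, were above the reference medians. Acinar81 held Tff1 at 402.4, Anxa10 at 7.74 and Gsta1 at 38.7, with Gata4 at 61.9 and Psca at 162.5. In Acinar173, Tff1 was at 263.5, Psca at 19.5, Mucl3 at 9.76 and Gsta1 at 68.3, with Gata4 at 117.1. Mitochondrial genes held 2.26% of the UMIs of Acinar81 and 4.14% of those of Acinar173, against a reference median of 0.995%.

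**Figure D5:**
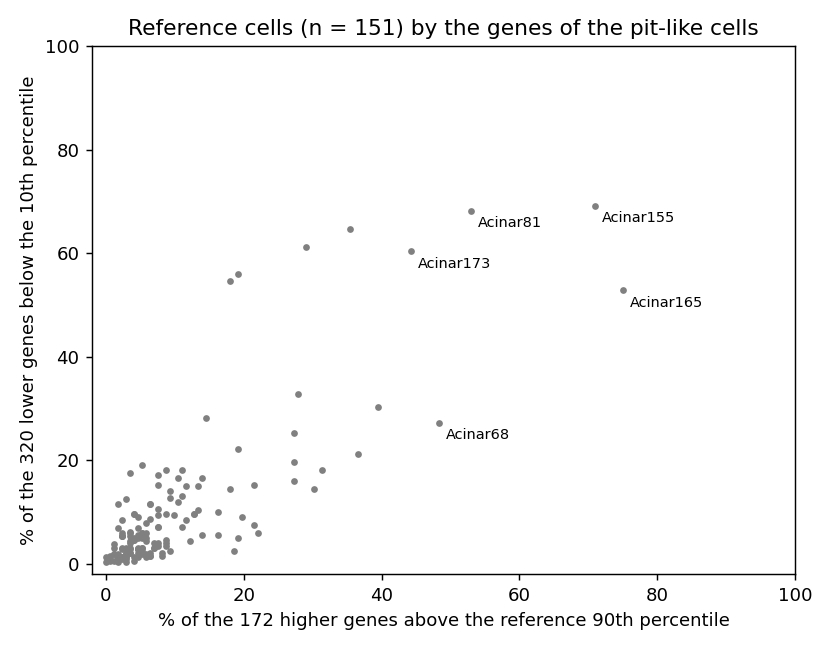
Each point is a reference cell, placed by the percentage of the genes called higher (without Muc5ac) that it held above the reference 90th percentile, and of the 320 called lower that it held below the 10th percentile. Acinar165 and Acinar155 stand farthest to the right at 75% and 70.9%, and most cells lie near the origin, with a median of 5.81%.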

How the data were processed

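The authors deposited 2 tables of raw counts, UMI counts and read counts, for 179 cells (4 pit-like, 151 reference, 24 in neither group) and 32100 Ensembl identifiers. Per the submitters' processing notes, the tools and builds were STAR, featureCounts, GRCm38 and mm10. The sources used here do not give the UMI collapsing method. Cells were joined to the labels by title, and 32009 identifiers had a symbol in the GRCm38 annotation. The cells and gene lists were chosen with earlier results of these data known. Levels are CPM of UMIs, with 5 CPM added in ratios and each cell weighted equally. A gene needed a mean of 5 CPM over the 4 pit-like and the reference cells, and 173 genes were then called higher, 320 lower, 79 higher in the gastrokine type and 159 in the Muc5ac type. Genes named are the 5 markers, the leading 20 higher and 10 lower genes, 12 per type, 5 per cell, and of each list the called genes and up to 4 others. Gkn3, Fcgbp, Tob1, Lasp1, Ctse, Rab27a, Agr2, Spdef, Tff3, Cpa1, Lcn2, Cyp2s1, Cyp2c65, Mt1, Lgals1, Ephx1, the mucins other than Muc5ac and marker genes with no UMI were added after their values were seen. Some genes that the rule names are not reported here. No doublet caller was run. Intervals cover counting error only. Promoters are from RefSeq. The rules were run on simulated counts with known changes and no difference between types, and no result above rests on that run. Versions were Python 3.11.15, pandas 2.3.3, numpy 2.4.6, matplotlib 3.10.9 and scipy 1.17.1.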

Additional observations from a re-analysis of the deposited data

Results flagged for a closer look

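In 26 gene and list values, 14.5% of those looked at, 1 of the 4 pit-like cells lay far from the other 3 by Dixon's criterion. Chance gives about 1 in 20 in groups not chosen for such a cell, but some of these genes (Aldh3a1, Homer2 and Apob among them) were named for their level in 1 cell, so the share cannot be read against it. Acinar55 was the cell apart for Ctrb1 (19788 CPM), Gstp1 (3473), Calr (1641) and Ceacam10 (180.7). It was so too for Tstd1, Kcne3 and Hhex, at 5.02 CPM each, where a single UMI against 0 decides. Acinar98 stood apart for Zg16 (9082), Clu (2595), Spink4 (2197), Atp8a2 (962.6), Onecut2 (62.8) and Smc4 (20.9, 1 UMI). Acinar175 did so for the detoxification list (13761), Aldh3a1 (1663), Homer2 (550.4), Apob (527.5), Ocln (321.1), Ano7 (34.4), Fn1 (34.4) and Sparc (11.5). Acinar22 did so for the foregut transcription factor list (1440), Ly6e (1314), Vsig2 (1014), Ly6d (1005) and Il1rn (897.0).

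In 5 cells outside both groups, with fewer than 5000 genes, Gkn1, Gkn2 and Muc5ac together exceeded 1000 CPM. The levels were 1169 in Acinar110, 2652 in Acinar125, 2710 in Acinar161, 1038 in Acinar167 and 1195 in Acinar179, against at most 668.8 in the reference. They rest on few UMIs, since these cells had 7699 to 23618 UMIs in all. Acinar161, the deepest of them, held Tff1 at 7579 CPM, Psca at 1651 and Anxa10 at 1016, with 41 UMIs of Gkn1. Its Tff1 and Psca levels were above those of the pit-like cell Acinar175, at 6238 and 1066. Mitochondrial genes held 23.2% of the UMIs of Acinar161 and 2.28 to 8.63% in the others, against at most 4.36% in the reference. Acinar125, Acinar161, Acinar167 and Acinar179 had 5.05 to 10.6 reads per UMI, against 1.57 to 2.33 in the 4 pit-like cells.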

How the results depend on the processing

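Direction under other settings was followed only for the genes that the naming rule picks, not for every called gene. Of those genes, none called higher or lower against the reference changed direction. A call already asks for a 2-fold ratio and for all 4 cells beyond a percentile. A change was therefore unlikely from the start, and its absence adds no support. Counts of genes are given here as a percentage of the 12082 genes. The 1.43% called higher and 2.65% called lower became 0.720% and 0.612% after thinning to 40000 UMIs, 0.935% and 1.27% at 4-fold, and 0.0745% and 0% with the highest and lowest reference cell as limits. Leaving out each cell in turn gave 1.80 to 2.60% higher and 3.19 to 7.15% lower. Between the types, 0.654% and 1.32% became 2.33% and 4.83% after thinning, 1.25% and 4.52% with 1 CPM added, 0.215% and 0.149% with 20 CPM added, 2.32% and 7.16% at 2-fold, and 0.24% and 0.157% with at least 100 CPM, which was chosen after seeing the data. Leaving out a cell, which leaves 1 cell on a side, gave 1.57 to 3.52% and 2.19 to 12.5%. The cause was not tested beyond what each setting does by construction. Reads in place of UMIs gave 1.29% higher and 3.42% lower, and 83.3% and 58.4% of these genes were among the first calls. Limits of 500 and 2000 CPM selected 6 and 4 cells. Of 290 list values under other settings 8 changed sign, and of 2478 gene values 71 did, none of them of a gene called against the reference. No paired analysis was possible because the labels give 1 group. Depth limits Acinar98 most, at 20.9 CPM per UMI.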
